A study of Mus musculus with 15 samples.

Results

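The neurofilament genes and the other neural intermediate filament genes were followed through RNA sequencing of Phf6-deleted and control mouse cortex. The 7 genes, Nefl, Nefm, Nefh, Ina, Prph, Vim and Nes, were chosen by name as the neurofilament subunits and their relatives in neurons and neural progenitors, out of 23132 genes kept. All 7 were in the count table and all 7 passed the filter on low counts in every comparison.

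Intermediate filaments are rope-like polymers that give cells mechanical strength. Neurons build theirs from a light, a medium and a heavy neurofilament chain (Nefl, Nefm, Nefh) together with alpha-internexin (Ina) and, in some neurons, peripherin (Prph), and the filaments fill the axon and set its calibre. Neural progenitors use vimentin (Vim) and nestin (Nes) instead, and these give way to the neuronal chains as cells differentiate. Alpha-internexin appears early in the developing brain, and the heavy chain comes late, as axons mature.

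Phf6 is an X-linked gene for a chromatin-associated protein, and all samples were C57BL/6 males. E15.5 cortex came from 3 Phf6 +/Y controls and 5 Phf6 -/Y embryos with a germline deletion, in litters 1 to 3. Primary neurons cultured for a day from E16.5 cortex came from 3 Phf6 +/Y NesCre T/+ controls and 4 Phf6 lox/Y NesCre T/+ cultures, in litters 4 to 7. NesCre is a Cre transgene under nestin control, active in neural progenitors and their progeny, and both neuron groups carried it while neither cortex group did. Litter 7 had no control. Each library came from an individual foetus, and some foetuses shared a litter.

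Libraries held 16858007 to 31157700 counted reads. Phf6 itself was at 149 to 191 CPM (read counts scaled to a common library size, with TMM factors over all 15 libraries) in control cortex and 42.4 to 55.2 in deleted cortex. In neurons it was at 228 to 259 CPM in controls and 59.9 to 85.8 in deleted cultures, so all 15 libraries went with their labels. Endothelial and mural markers summed to 191 to 392 CPM in cortex and to 6.64 to 12.5 CPM in neurons, where Cldn5, a tight junction gene of brain endothelium, was listed at 0 in all 3 controls. Cortical neuron markers, among them Neurod6 and Tbr1, were present in every library. The cortex library deleted replicate 1 of litter 3 stood apart. Its subcortical markers summed to 513 CPM against 91.0 to 130 in the other cortex libraries, and its cortical neuron markers summed to 1422 CPM against 2234 to 2486. The cortex fold changes of Nefl, Nefm, Ina, Prph, Vim, Nes and the named Cajal-Retzius genes are therefore given with and without it. The cortex fold change of Nefh, the mean ratio differences, the shares and the interaction are given with it.

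Vim and Nes moved together between cortex and neurons, and their promoters are shown as RefSeq gives them for GRCm38.p6, the 250 bases before the annotated start on the plus strand, 5′ to 3′. Capitals mark a TATA box (TATAAA), a GC box (GGGCGG) or a CCAAT box (CCAAT), searched on both strands.
Vim, chr2:13574061-13574310: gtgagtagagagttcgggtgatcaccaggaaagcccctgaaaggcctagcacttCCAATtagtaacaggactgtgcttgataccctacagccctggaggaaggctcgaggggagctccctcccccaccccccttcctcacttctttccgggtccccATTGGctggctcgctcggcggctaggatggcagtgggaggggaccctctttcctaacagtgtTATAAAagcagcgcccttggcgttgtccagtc
Nes, chr3:87970843-87971092: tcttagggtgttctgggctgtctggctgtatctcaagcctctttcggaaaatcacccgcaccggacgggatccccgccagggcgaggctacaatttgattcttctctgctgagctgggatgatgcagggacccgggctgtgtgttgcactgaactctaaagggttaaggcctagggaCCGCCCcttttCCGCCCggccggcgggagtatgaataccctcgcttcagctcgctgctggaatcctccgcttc

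The Vim window held 1 TATA box, beginning 32 bases before the start, and 2 CCAAT boxes, and no GC box. The Nes window held 2 GC boxes, read on the minus strand, and neither of the other motifs. Among 32851 promoter windows of the same length, 12.4% held TATAAA, 32.7% GGGCGG and 33.8% CCAAT. The 2 windows therefore shared none of the 3 motifs, and their GC contents were 58.4% and 58.8% against a median of 52.4%.

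On GRCm38 the light and medium chain genes are neighbours, Nefl (Entrez 18039) at chr14:68083863-68089095 and Nefm (Entrez 18040) at chr14:68119545-68125004, with 30449 bases between them. Nefh (Entrez 380684) lies at chr11:4938754-4948064, Ina (Entrez 226180) at chr19:47014681-47025327, Prph (Entrez 19132) at chr15:99053579-99058978, Vim (Entrez 22352) at chr2:13574311-13582826 and Nes (Entrez 18008) at chr3:87971093-87980451. The strand setting of the counting is not given in the sources used here, and in GENCODE vM21 Ina shares 456 exonic bases with Nt5c2 on the opposite strand, and a long Nefm transcript shares 1108 with Nefl. RefSeq, which the counting used, keeps Nefl and Nefm apart. In it the span of Nefm overlaps a non-coding RNA, and that of Nefh overlaps another non-coding RNA and Ap1b1. Reads of Ina, Nefm and Nefh may therefore include some of their neighbours.

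To compare levels between genes, CPM was divided by the gene length in the count table (RPKM). In control cortex the progenitor gene Vim was highest at 299 ± 2.06 RPKM (SD, n = 3), then Ina at 167 ± 3.55, Nes at 78.4 ± 2.00, Nefl at 19.4 ± 1.60 and Nefm at 14.7 ± 0.943. No library of one of these genes reached into the range of the next. Prph and Nefh were both below 1.1 RPKM, at 0.789 ± 0.331 and 0.415 ± 0.0839, and their ranges overlapped. In deleted cortex the first 5 genes held the same order without overlap.

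In control neurons Ina led at 123 ± 8.03 RPKM (SD, n = 3), and Vim at 79.8 ± 7.68, Nefl at 72.5 ± 16.1 and Nefm at 69.2 ± 18.7 overlapped one another in that order. Nes followed at 18.4 ± 2.18, with Nefh and Prph again lowest. In deleted neurons Nefl stood second at 92.5 ± 13.5 RPKM (SD, n = 4), overlapping Vim at 76.6 ± 9.97. These orders depend on the lengths used: the table gives Nefl 2009 and Vim 1834 bases, whereas the exons in GENCODE vM21 cover 3380 and 4743.

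**Figure D1:**
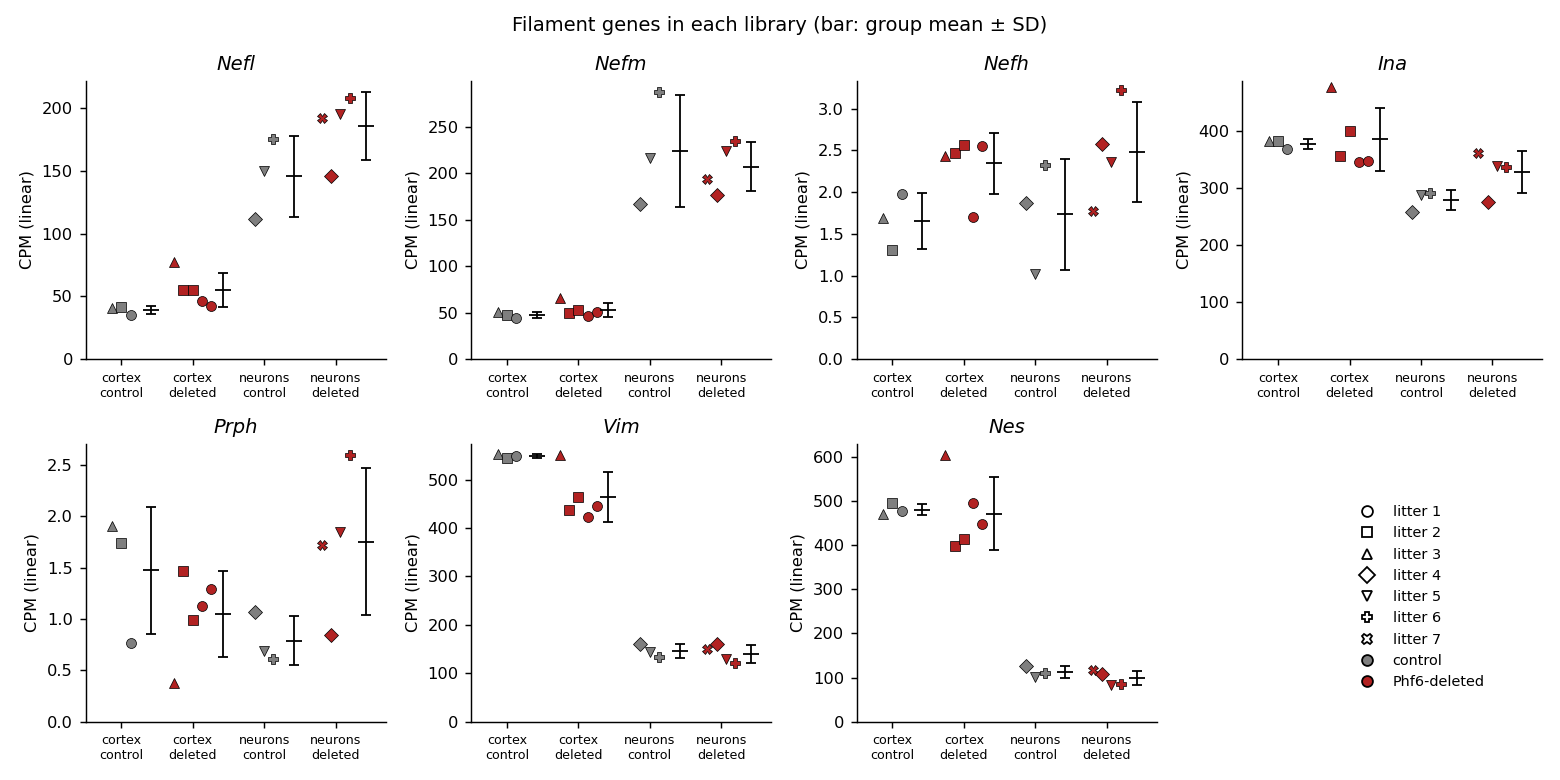
CPM of the 7 genes on linear axes, with 1 point per library, its shape giving the litter, grey for control and red for Phf6-deleted, and the group mean ± SD as a bar. Nefl in deleted cortex lies at 42.5 to 77.4 CPM, above the controls at 35.3 to 41.3, and Vim and Nes are far lower in neurons than in cortex.

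Loss of Phf6 in the E15.5 cortex was examined first. Of the 7 filament genes, 1 rose and 0 fell at FDR below 0.05, against 0.319% of all 14750 tested genes that rose and 0.0678% that fell (edgeR's quasi-likelihood test, in which each litter had its own baseline). At an unadjusted p below 0.05, 2 were higher and 1 lower, where 5.69% and 4.77% of all tested genes were, and DESeq2 and limma each called 1 higher and 0 lower. The gene that rose was Nefl, the light chain on which the other neurofilament chains assemble. Its fitted log2 fold change was 0.52 (SE 0.10, 95% interval 0.30 to 0.75, FDR = 0.0498). Nefm and Nefh had positive estimates that did not pass, and Vim had a negative one that did not pass.

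Nefl in control cortex was at 40.5, 41.3 and 35.3 CPM in replicates 1 to 3. In deleted cortex it was at 77.4, 55.2, 55.0, 46.6 and 42.5 CPM in replicates 1 to 5. All 5 deleted libraries lay above every control, the lowest of them by little. Within litters, the 5 deleted libraries exceeded the control of their litter by 0.27 to 0.94 on the log2 scale, most in litter 3. These 5 pairs share 3 controls, because litters 1 and 2 each gave more than 1 deleted library, so they are not independent.

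The Nefl call lay just inside the threshold. Without deleted replicate 1 the log2 fold change was 0.38 (FDR = 0.199), and of the 8 fits that left out 1 library, 1 kept the call. With litter left out of the fit, that is, without the replicate block, it was 0.50 (FDR = 0.617). DESeq2 and limma each called Nefl as well, with litter in the fit.

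Nefm, the medium chain, was at 50.6, 47.3 and 44.5 CPM in control cortex and at 65.9, 49.6, 53.0, 46.5 and 50.5 CPM in deleted cortex. The groups overlapped, although all 5 deleted libraries were above the control of their litter. The log2 fold change was 0.19 (SE 0.08, FDR = 0.435), and 0.12 without deleted replicate 1. Nefh, the heavy chain, had 33 to 54 reads in control libraries and 50 to 70 in deleted ones, and its log2 fold change of 0.50 (SE 0.30, FDR = 0.595) had an interval of -0.14 to 1.14.

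Ina, which forms filaments with the neurofilament chains in the central nervous system, was at 382, 383 and 369 CPM in control cortex. In deleted cortex it was at 478 CPM in replicate 1 and at 347 to 401 in the other 4 libraries, on both sides of the controls. Its log2 fold change was 0.04 (95% interval -0.12 to 0.21, FDR = 0.897), and without deleted replicate 1 it was -0.05. Prph had 9 to 61 reads in any cortex library and gave -0.57 (SE 0.48, FDR = 0.730), with the fewest reads in deleted replicate 1, without which it gave 0.01.

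Of the progenitor genes, Vim was at 553, 545 and 549 CPM in control cortex and at 552, 438, 463, 423 and 445 CPM in deleted cortex, so that 4 of the 5 deleted libraries were below every control and replicate 1 was level with them. The log2 fold change was -0.23 (SE 0.07, 95% interval -0.38 to -0.08), which did not pass (FDR = 0.233), and without deleted replicate 1 it was -0.31 (FDR = 0.191). Nes was at 471, 494 and 477 CPM in controls and at 603, 397, 413, 495 and 448 CPM in deleted libraries, and its log2 fold change was -0.02 (95% interval -0.24 to 0.19, FDR = 0.965), or -0.15 without deleted replicate 1. In cortex, fewer cells of a type and less RNA per cell cannot be told apart in these bulk samples.

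**Figure D2:**
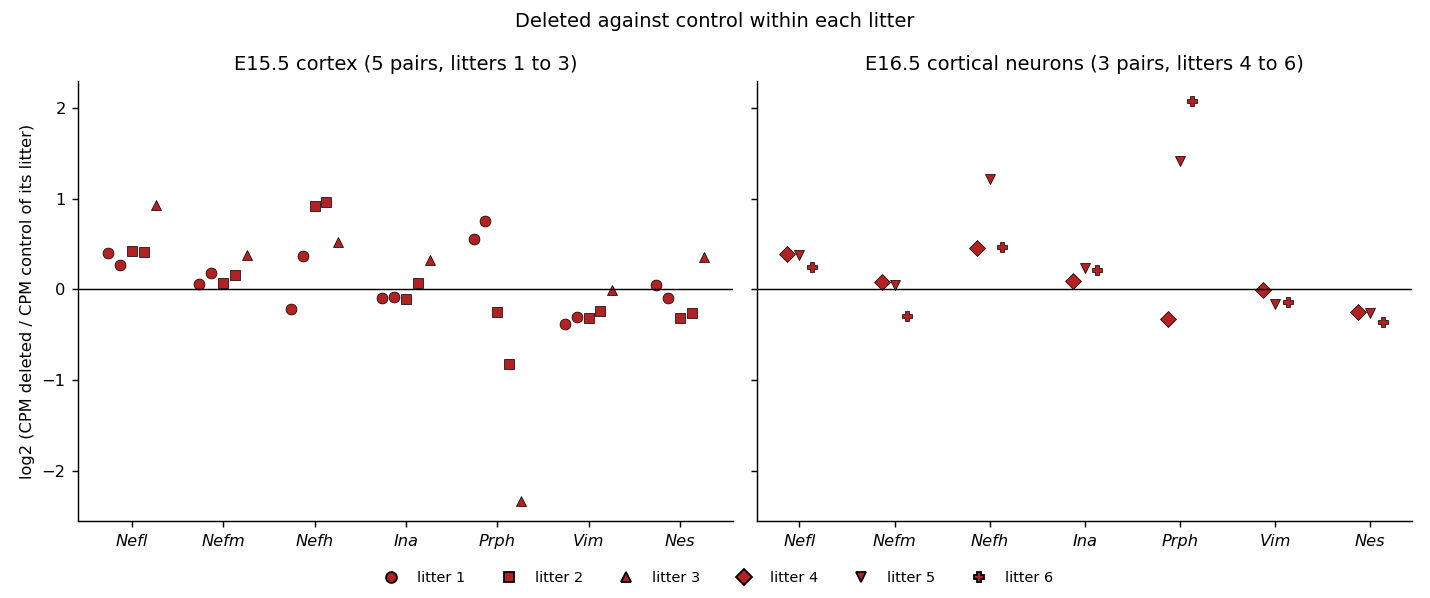
Each deleted library against the control of its own litter, as the log2 ratio of CPM, with 5 pairs in the E15.5 cortex and 3 pairs in E16.5 neurons. The 5 cortex pairs share 3 controls, because litters 1 and 2 each gave more than 1 deleted library. Nefl is above 0 in all 8 pairs and Vim below 0 in all 8, barely so in litters 3 and 4, while Nes is below 0 in the 3 neuron pairs and on both sides in cortex.

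The same comparison in E16.5 cortical neurons again found 1 gene higher and 0 lower, against 0.194% and 0.0791% of all 13909 tested genes, and DESeq2 and limma gave the same counts. At an unadjusted p below 0.05, 2 were higher and 1 lower, where 5.87% and 4.46% of all tested genes were. Nefl was the gene, with a log2 fold change of 0.34 (SE 0.06, 95% interval 0.21 to 0.47, FDR = 0.0202). Nefm gave -0.06, and Nes gave a negative estimate short of the threshold.

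Nefl was at 111, 150 and 176 CPM in the control cultures of litters 4, 5 and 6. The deleted cultures of those litters were at 146, 196 and 209 CPM, and the culture of litter 7 was at 192 CPM. The groups overlapped, because litters 5 and 6 were higher than litter 4 in both genotypes, and within each litter the deleted culture was higher, by 0.25 to 0.39 on the log2 scale. With each litter at its own baseline, the effect rests on the pairs of litters 4, 5 and 6, and litter 7, without a control, does not inform it. The call was lost without control replicate 2 (FDR = 0.297) and without deleted replicate 3 (FDR = 0.238), both of litter 5. It was kept in the other 5 such fits, and the log2 fold change was 0.32 to 0.39 in all 7. Leaving out either library of a pair takes that pair out of the estimate, so the 7 fits were not separate checks. Without the replicate block the log2 fold change was 0.35 (FDR = 0.778).

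Nefm was at 167, 217 and 287 CPM in the controls of litters 4, 5 and 6 and at 176, 224 and 234 CPM in the deleted cultures of the same litters. It was slightly higher in 2 deleted cultures and lower in the one of litter 6. The log2 fold change was -0.06 (95% interval -0.21 to 0.09, FDR = 0.846). The interval of Nefm lay below that of Nefl.

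Ina was at 259, 288 and 292 CPM in controls and at 276, 339 and 338 CPM in their deleted littermates, with 363 CPM in litter 7. It was higher within all 3 litters, yet the log2 fold change of 0.18 (SE 0.06) did not pass (FDR = 0.236). Nefh, with 22 to 70 reads a library, gave 0.68 (SE 0.33, FDR = 0.503). Prph, with 14 to 54 reads, gave 1.04 (SE 0.50, FDR = 0.500), and it ranged from 0.50 to 1.75 when 1 library was left out.

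Nes was at 127, 101 and 110 CPM in the controls of litters 4, 5 and 6 and at 107, 83.8 and 86.0 CPM in the deleted cultures of those litters. The deleted culture was lower in each of the 3 litters, by 0.24 to 0.36 on the log2 scale. The log2 fold change was -0.29 (SE 0.06, 95% interval -0.42 to -0.15), with an FDR of 0.0893, and it passed in 2 of 6 other ways of fitting and in 2 of 7 fits that left out 1 library. Vim was at 134 to 162 CPM in controls and 122 to 161 CPM in deleted cultures, with a log2 fold change of -0.10 (95% interval -0.23 to 0.03, FDR = 0.620).

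**Figure D3:**
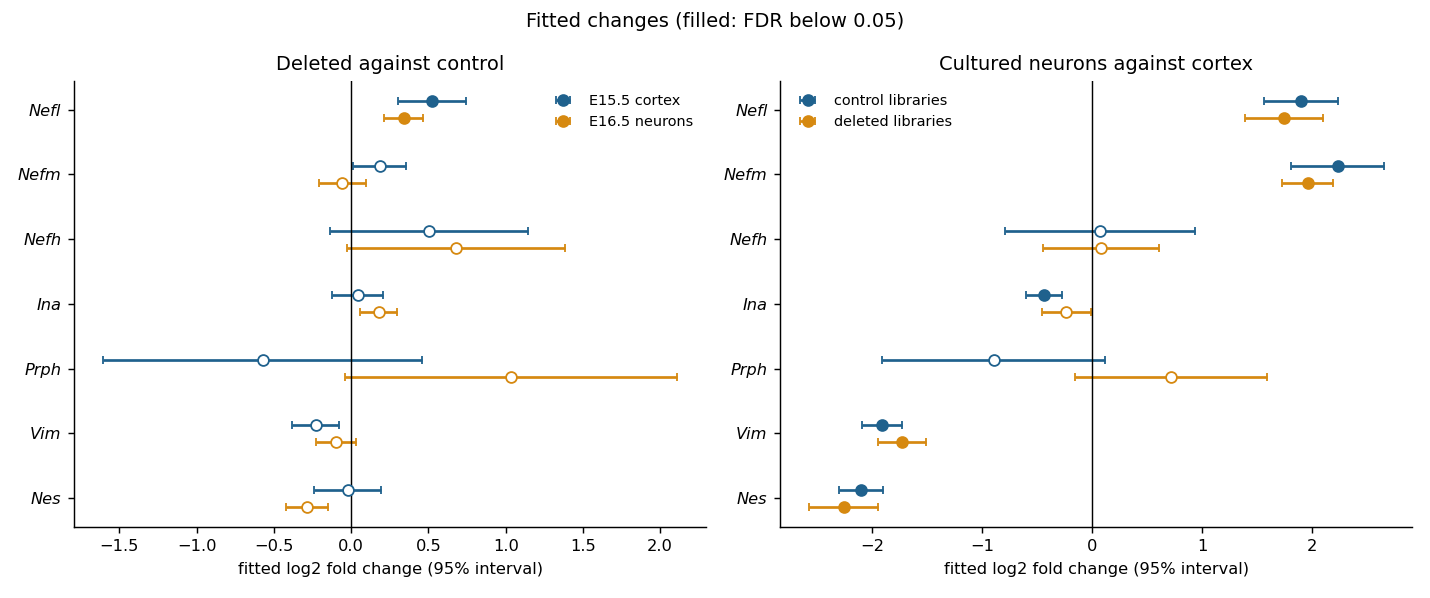
Fitted log2 fold changes with 95% intervals, deleted against control on the left and cultured neurons against cortex on the right, with filled points where FDR was below 0.05. On the left only the 2 points of Nefl are filled, at 0.52 and 0.34, and on the right Nefl and Nefm lie to the right of 0 and Vim and Nes to the left in both genotypes.

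Whether the effect of the deletion differed between neurons and cortex was tested as an interaction in 1 fit over the 15 libraries. There tissue also goes with a germline or a NesCre deletion. At FDR below 0.05, 0 of the 7 filament genes were higher and 0 lower, against 0.00667% and 0.00667% of 15001 tested genes, and DESeq2 and limma called 0 as well. Nefm was the 1 member with an unadjusted p below 0.05, where 2.27% of all tested genes were higher and 2.92% lower, its effect being lower in neurons by -0.25 on the log2 scale (SE 0.11, FDR = 0.952). For Nefl the difference was -0.19 with an interval of -0.46 to 0.08 (FDR = 0.954). A difference of that range in either gene was therefore not resolved.

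The proportion of light to medium chain was compared per length within each library, where the scaling of the library cancels. In cortex the ratio of Nefl to Nefm was 1.29, 1.40 and 1.28 in controls and 1.89, 1.79, 1.67, 1.61 and 1.35 in deleted libraries. In neurons it was 1.07, 1.12 and 0.985 in controls and 1.60, 1.34, 1.41 and 1.43 in deleted cultures. The neuron groups did not overlap, and in cortex 1 deleted library lay within the control range.

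The mean log2 ratio was 0.32 higher in deleted cortex (exact two-sided permutation test, p = 0.0714, adjusted p = 0.0952 over 4 ratio tests). In neurons it was 0.45 higher in deleted cultures, with p = 0.0571 in the same exact test (adjusted p = 0.0952), which is the smallest p that 3 against 4 libraries allow. With labels exchanged only within litters, as a replicate block, the exact test gave p = 0.111 in cortex and 0.250 in neurons, the smallest values it can give there. Neither ratio difference passed, and the differences were positive in all 15 fits that left out 1 library.

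The ratio of progenitor filaments (Nes and Vim summed) to neuronal filaments (Nefl, Nefm and Ina summed) was 1.85, 1.85 and 1.95 in control cortex. In deleted cortex it was 1.48, 1.52, 1.45, 1.64 and 1.67, below every control. The mean log2 ratio, deleted minus control, differed by -0.28 (exact permutation test, p = 0.0357, the smallest that 3 against 5 allow, adjusted p = 0.0952). In neurons the difference was -0.28 too, with overlapping groups at 0.298 to 0.492 in controls and 0.247 to 0.423 in deleted cultures (exact permutation test, p = 0.343). Within litters the deleted library was lower in 5 of 5 cortex pairs, by 0.23 to 0.35 on the log2 scale, and in 3 of 3 neuron pairs, by 0.22 to 0.41. The 5 cortex pairs share 3 controls and are not independent. With labels exchanged within litters, as a replicate block, the exact test gave p = 0.111 in cortex and 0.250 in neurons, the smallest it can give. Leaving out 1 library moved the neuron difference to between -0.44, without control replicate 3, and -0.08, without control replicate 1. It was also -0.43 without deleted replicate 2 and -0.17 without deleted replicate 4.

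**Figure D4:**
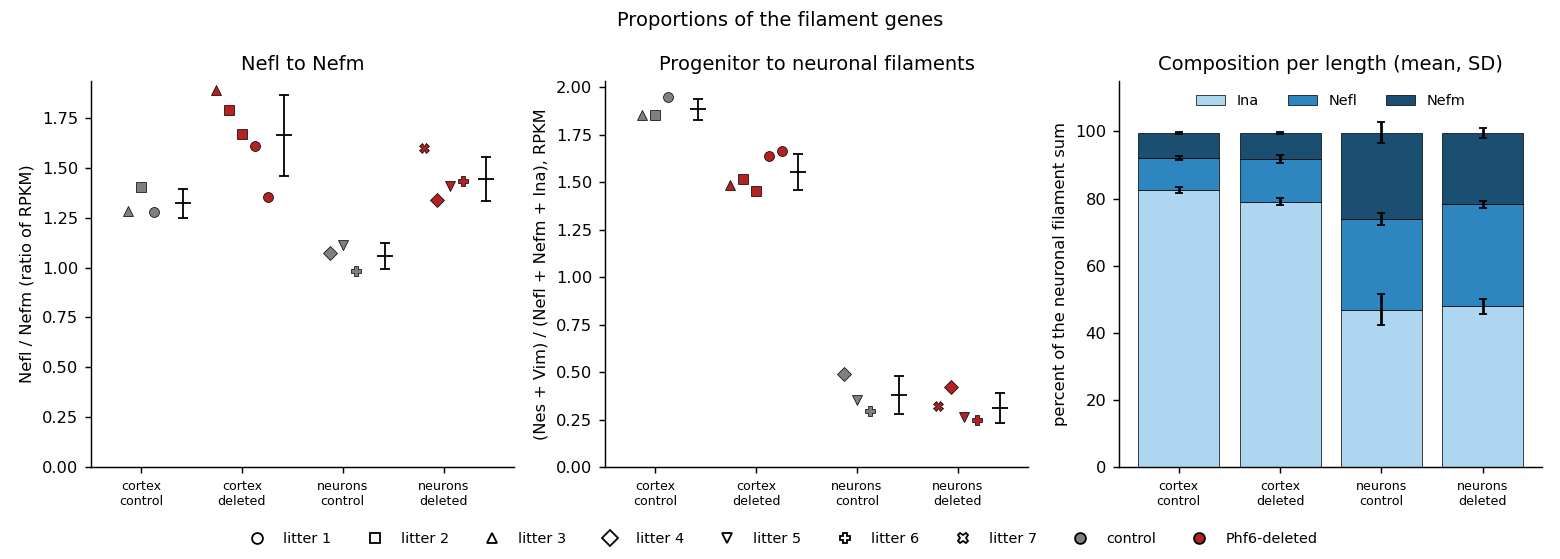
Ratio of Nefl to Nefm, ratio of progenitor to neuronal filament genes and composition of the neuronal filament sum, all from RPKM, with 1 point per library and mean ± SD. The mean Nefl share is 9.61% in control and 12.7% in deleted cortex and 27.1% and 30.4% in neurons, and Ina makes up 82.5% of the sum in control cortex against 46.8% in control neurons.

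Of the summed neuronal filament RNA per length, Nefl made up 9.61% ± 0.513 (SD, n = 3) in control cortex and 12.7% ± 1.27 (SD, n = 5) in deleted cortex. Ina made up 82.5% ± 0.804 and 79.1% ± 1.05. In neurons the share of Nefl was 27.1% ± 1.90 (SD, n = 3) in controls and 30.4% ± 1.08 (SD, n = 4) in deleted cultures, and that of Nefm 25.7% ± 2.98 and 21.2% ± 1.5. Nefh and Prph together stayed below 1% in all 4 groups by their means.

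The next comparison set cultured neurons beside cortex within each genotype. It confounds embryonic stage, dissociation and culture, litter and, for each genotype, the NesCre transgene. For the deleted groups it also confounds a germline deletion with one made by NesCre. These cannot be told apart. Between control groups, 2 filament genes were higher in neurons and 3 lower, against 24.7% and 26.4% of 14320 tested genes. Between deleted groups, 2 were higher and 2 lower, against 28% and 31.1% of 14416 tested genes.

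Nefl was 3.72 times higher in control neurons than in control cortex (log2 fold change 1.90, SE 0.15, FDR = 3.64e-06), and Nefm was 4.69 times higher (2.23, SE 0.18, FDR = 2.02e-05). Nes fell by 2.10 on the log2 scale (SE 0.09, FDR = 7.44e-09) and Vim by 1.91 (SE 0.09, FDR = 7.44e-09). Ina fell by 0.44 (SE 0.08, FDR = 0.000367), opposite in direction to the other abundant neuronal filament genes. Nefh gave 0.07 (interval -0.80 to 0.93, and -0.07 with library totals) and Prph gave -0.89 (FDR = 0.13).

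The deleted groups gave 1.74 for Nefl, 1.96 for Nefm, -1.73 for Vim and -2.26 for Nes, with FDR values of 5.78e-06, 4.85e-08, 6.98e-08 and 2.54e-07. Ina gave -0.24 (FDR = 0.0665) and did not pass there, but it passed with library totals (-0.39, FDR = 0.00728), without cortex deleted replicate 4 (FDR = 0.0492) and without neurons deleted replicate 1 (FDR = 0.0488). It was -0.15 without cortex deleted replicate 1. Scaling by library totals moved the median of all genes from -0.03 to -0.17 in the control comparison and from -0.03 to -0.19 in the deleted one. Relative to that, the 5 called genes of the control comparison kept their directions.

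Markers of progenitors moved with Vim and Nes. All 12 radial glia and progenitor markers, among them Hes1, a Notch target, and Top2a, a gene of dividing cells, were lower in neurons in both genotypes, with a median log2 fold change of -1.79 in controls against -0.03 over all tested genes. Their summed level was 2216 to 2425 CPM in control cortex and 599 to 944 CPM in control neurons. Of all tested genes, 26.4% were lower between control groups and 31.1% between deleted groups. All 9 endothelial and mural markers, cells that also carry Vim, were lower as well, and the part of either in the fall of Vim and Nes was not tested.

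Of 16 axonal microtubule and growth cone genes, 13 were higher and 0 lower in control neurons than in control cortex. Examples were Mapt, the axonal protein tau, at 0.85 (SE 0.09, FDR = 3.96e-06) and Dcx, doublecortin of migrating neurons, at 0.90 (SE 0.10, FDR = 8.45e-06). Of 16 partners that link, move or modify neurofilaments, 7 were higher and 1 lower. The counts of both lists stand beside 24.7% higher and 26.4% lower of all 14320 tested genes. Kif5c, a kinesin motor of axons, gave 0.88 (SE 0.08, FDR = 2.20e-06), and Plec, the cytolinker plectin, gave -1.73 (SE 0.15, FDR = 1.05e-06). Gfap, the astrocyte filament, rose by 3.96 (SE 0.48, FDR = 0.00022), from 1.06 ± 0.707 CPM to 16.1 ± 2.28 CPM (SD, n = 3 each).

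Few genes of the same lists passed the test between genotypes. Their counts at an unadjusted p below 0.05 stand beside 5.69% higher and 4.77% lower of all tested genes in cortex, and 5.87% and 4.46% in neurons. In cortex, 0 of the 16 filament partners passed in edgeR's test, 3 had an unadjusted p below 0.05, all higher, and DESeq2 and limma called 0. In neurons the counts were 0 and 4 of the 15 tested, again all higher, with 0 by the other tools. Dync1h1, the heavy chain of the retrograde motor dynein, had the smallest p of the list in both, with 0.19 in cortex (FDR = 0.302) and 0.18 in neurons (FDR = 0.209). The cytolinkers Macf1 and Dst came next in both tissues, at 0.16 to 0.19.

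Of the 16 axonal microtubule and growth cone genes, edgeR called 0 in cortex, where 2 were higher and 1 lower at an unadjusted p below 0.05, and 0 in neurons, where 3 were higher. Map1b, a microtubule protein of growing axons, was foremost in both, at 0.24 (FDR = 0.174) and 0.18 (FDR = 0.262). DESeq2 called Map1b in cortex and no other gene of the list, and limma called 0. The medians of the list were -0.03 and 0.06, beside 0.00 and 0.00 over all tested genes.

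Among the other intermediate filaments, 10 of 12 were tested in cortex and 5 in neurons. edgeR, DESeq2 and limma called 0 in either, with 1 unadjusted p below 0.05 in cortex, that of Lmnb1, a nuclear lamin, at -0.16 (FDR = 0.385). The median was -0.23 in cortex and -0.01 in neurons.

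Radial glia and progenitor markers gave 0 calls by edgeR, DESeq2 and limma in both tissues. At an unadjusted p below 0.05, 1 was higher and 1 lower in cortex, and 4 of 12 were lower and 0 higher in neurons. Prom1, a surface protein of radial glia, had the smallest p in neurons at -0.45 (SE 0.10, FDR = 0.0985), and Eomes, which marks intermediate progenitors, gave -0.25 (FDR = 0.220). The summed level was 599 to 944 CPM in control neurons and 550 to 854 CPM in deleted ones, and its part in the Nes estimate was not tested.

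Cajal-Retzius markers were also compared between genotypes. These genes mark early-born neurons of the marginal zone, and 2 of 7 rose in deleted cortex, Lhx5 by 0.77 (SE 0.14, FDR = 0.0368) and Calb2 by 0.56 (SE 0.11, FDR = 0.0393). In neurons 2 of the 6 tested rose, Reln, the secreted protein reelin, by 0.81 (SE 0.06, FDR = 1.40e-05) and Ndnf by 1.24 (SE 0.16, FDR = 0.00386). These calls stand beside 0.319% of all tested genes that rose in cortex and 0.194% in neurons. At an unadjusted p below 0.05, 2 of 7 were higher in cortex and 5 of 6 in neurons, and 0 were lower in either. In cortex Reln gave 0.22 (SE 0.12, FDR = 0.603) and did not pass. Without deleted replicate 1 of cortex, Lhx5 gave 0.69 (FDR = 0.209) and Calb2 0.52 (FDR = 0.191), while Reln passed at 0.42 (FDR = 0.0398).

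The Cajal-Retzius sum was 287 to 319 CPM in control cortex and 299 to 425 in deleted cortex, and 111 to 157 CPM in control neurons against 192 to 370 in deleted ones. Nefl was highest in cortex in deleted replicate 1, whose Cajal-Retzius sum of 299 CPM was within the control range. From deleted cortex replicate 1 to 5 the sum went up, at 299, 379, 392, 415 and 425 CPM. Nefl went down over the same libraries, from 77.4 to 42.5 CPM. In deleted neuron replicates 1 to 4 the sums were 370, 206, 192 and 263 CPM, beside Nefl at 192, 146, 196 and 209. None of the 7 markers was listed at 0 in any cortex library, and at most 1 was in a neuron library. The part of these cells in the Nefl result was not tested.

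Subcortical markers gave 0 calls of 9 tested in cortex by edgeR, DESeq2 and limma, with 2 higher at an unadjusted p below 0.05. In neurons Lhx9, a transcription factor, rose by 0.82 (SE 0.14, FDR = 0.0173). It was the 1 call of 6, beside 0.194% of all tested genes that rose. At an unadjusted p below 0.05, 2 of these markers were higher in neurons. Their sum was 16.0 to 18.9 CPM in control neurons and 22.1 to 27.1 in deleted ones, and up to 4 of the 11 were listed at 0 in a library. Cortical neuron, endothelial and mural, and meningeal fibroblast markers gave 0 calls in both tissues by all 3 tools. At an unadjusted p below 0.05, 2 cortical neuron markers were lower in cortex and 1 was higher in neurons, and 1 endothelial and 1 meningeal marker were higher in neurons. Meningeal markers summed to 18.4 to 277 CPM in control cortex and 16.6 to 535 in deleted cortex, a spread that did not follow the genotype.

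**Figure D5:**
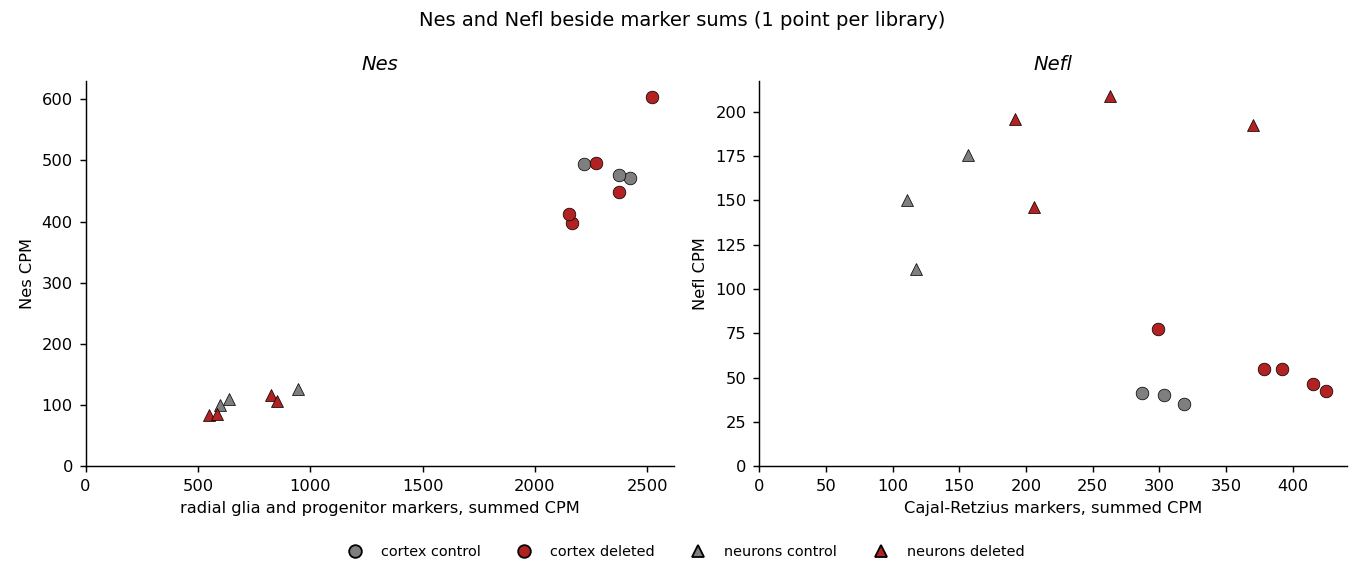
Nes CPM against the summed CPM of radial glia and progenitor markers, and Nefl CPM against that of Cajal-Retzius markers, with 1 point per library, circles for cortex and triangles for neurons, grey for control and red for deleted. Cortex and neurons form separate clusters in both, and the cortex library with the highest Nefl, 77.4 CPM, has a Cajal-Retzius sum of 299 CPM, near that of the controls.

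The members were also compared with each other across the 8 cortex and the 7 neuron libraries, as a description, since libraries share litters and genotypes. Vim and Nes had a Pearson r of 0.58 in cortex and 0.81 in neurons. Nefl and Nefm had 0.87 in cortex and 0.63 in neurons, and Nefl and Ina 0.70 and 0.90. Nefl and Vim had -0.10 in cortex and -0.79 in neurons. On ranks (Spearman's rho) in cortex, Nefl and Nefm had 0.57, Nefl and Ina 0.26, Vim and Nes 0.43 and Nefl and Vim -0.29. In neurons the same pairs had 0.71, 0.86, 0.79 and -0.89 on ranks. The cortex values include deleted replicate 1, which had the highest Nefl, Nefm, Ina and Nes of the cortex libraries.

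Among 13733 genes tested in both tissues, the 5 whose log2 CPM was most like that of Nefl, by the lower of the 2 r values, were Stbd1, Rtn4rl1, Dpp6, Tmem130 and Ptprn2. Their r was 0.91 to 0.95 in the 8 cortex libraries and 0.94 to 0.96 in the 7 neuron libraries. The 5 most like Nes were Arhgap19, Tpx2, Rfc1, Osgep and Kif23, with 0.86 to 0.94 and 0.87 to 0.91. On ranks in cortex the values were 0.81 to 0.98 for the genes like Nefl and 0.62 to 0.83 for those like Nes. The libraries behind these values share litters and genotypes and differ in depth.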

How the data were processed

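Deposited counts are reads per Entrez gene, which the authors obtained by aligning paired reads of stranded polyA libraries to mm10 with Rsubread and counting with featureCounts and its inbuilt RefSeq annotation, with no normalization. All 15 per-sample files equalled their column in the series table. Rows with no identifier (0.349% to 0.605% of reads) were left out, as were 875 unmatched identifiers, 835 pseudogenes, 35 rRNA genes and 1273 genes with predicted names. Filtering used filterByExpr and scaling TMM. Tests were edgeR 4.0.16 robust quasi-likelihood with Benjamini-Hochberg adjustment over all genes (FDR below 0.05), under R 4.3.3. Litter was a fixed term within each tissue, and the labels give the litter, which pairs deleted with control samples, so replicate numbers were not used to pair. Standard errors were derived from the F statistics. Alternatives were RLE or library-total scaling, no filter, DESeq2 1.42.0, limma 3.58.1 with trend, no litter term and each library left out. Ratios were tested by exact permutation. The edgeR fits were tested on simulated counts. No 2 replicates agreed within sampling noise.

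Named genes were the 7 members, every listed gene past the threshold in a genotype comparison, otherwise up to 3 of a list with the smallest p there, and the 5 genes most like Nefl and the 5 most like Nes. Dcx, Kif5c, Plec, Hes1, Top2a and the marker genes named as examples were chosen after their values were seen. Members and lists were chosen with earlier results of these data known. Replicates are individual foetuses, per the study's figure legends. Intervals cover the spread between libraries, and Nefh and Prph had few reads.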

Additional observations from a re-analysis of the deposited data

Results flagged for a closer look

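In the groups of 4 and 5 libraries, 38 sets of values were examined for a library far from the others, and 4 had one, where chance flags about 1 in 20. Deleted cortex replicate 4 had the lowest Nefh level, 1.70 CPM, with the next library at 2.44. The same library had the highest meningeal fibroblast sum, 534.8 CPM, the next being 114. Deleted cortex replicate 1 had the highest subcortical sum, 512.7 CPM, the next being 129.8, and the lowest cortical neuron sum, 1422 CPM, the next being 2234. It also had the highest Nefl, Nefm, Ina and Nes and the lowest Prph of the deleted cortex, and leaving it out lowered the Nefl log2 fold change from 0.52 to 0.38. The part of any of these in the filament results was not tested.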

How the results depend on the processing

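Some alternatives, namely leaving out 1 library in the interaction and deleted-tissue fits, the other settings of the deleted-tissue fit, and the lists without deleted cortex replicate 1, were chosen after seeing the data. The count of filament genes higher in deleted cortex went from 1 to 0 with library totals (Nefl FDR = 0.0708 in edgeR) and with no replicate block (FDR = 0.617), and ranged from 0 to 1 over the fits that left out 1 library. For neurons the count higher went from 1 to 0 with no replicate block and ranged from 0 to 1 over the left-out libraries. The count lower in neurons went from 0 to 1, Nes, with library totals and without the filter, and ranged from 0 to 1 over the left-out libraries. The replicate block, here the litter, changed no other count of filament genes. Ina passed between deleted tissues, taking the count lower from 2 to 3, with library totals and in 2 of 9 fits that left out 1 library.

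Among the filament genes, direction turned in estimates that were not called. With 1 library left out, log2 estimates in cortex ranged from -0.0552 to 0.116 for Ina, from -1.23 to 0.0146 for Prph and from -0.157 to 0.147 for Nes, and in neurons from -0.124 to 0.0625 for Nefm. Those of Nefh ranged from -0.0698 to 0.402 in the interaction, from -0.173 to 0.363 between control tissues and from -0.0649 to 0.214 between deleted tissues, and with library totals they were -0.0737 and -0.0720 between tissues in control and deleted samples. The causes were not tested. Nefh and Prph had 9 to 70 reads a library, and counting error was not separated from the spread between libraries.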
